A study of Arabidopsis thaliana with 15 samples.

Results

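In *Arabidopsis*, damage to leaf 1 of a rosette is known to change gene expression in leaf 6, with which it shares vascular connections. Leaf 1 was provoked in different ways, and the effects on leaf 6 are compared here: application of glutamate (Glu), an amino acid, and wounding. The comparison used 12 of the 15 RNA-seq libraries of the series, 3 in each of 4 groups. The Glu group was taken 1 h after 100 mM Glu was applied to leaf 1, and its mock group came from plants without small molecule treatment. The wounding group was taken 1 h after leaf 1 was wounded, and its wounding mock group was taken before wounding. The remaining 3 libraries were from GSH-treated plants and enter only where named. All plants were wild type Col-0, 22 to 24 days old, grown at 22 °C under 10 h light and 14 h dark, and leaf 6 was sampled throughout. By the study's methods, small molecules for expression assays went onto the cut margin of a leaf that had recovered from cutting, so leaf 1 of the Glu group had also been cut. Whether leaf 1 of the mock plants had been cut is not given in the sources used here. The labels do not say whether replicates were separate plants or pools, so p-values measure the spread between these libraries only.

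The 4 groups allow the effect of Glu (Glu minus mock) and the effect of wounding (wounding minus wounding mock) to be set against each other, each from its own untreated plants. Their difference, the Glu effect minus the wounding effect, is the comparison of interest; a positive value means that the gene rose more, or fell less, after Glu, and a negative value the same for wounding. A direct comparison of Glu with wounding libraries is given beside it. Values are FPKM, which the authors had already scaled for transcript length and library, and effects are on log2(FPKM + 1), a scale that understates the change of low genes. A gene was called when its adjusted p from limma was under 0.05 and its absolute log2 value above 1. Of 32833 genes, 17403 reached 1 FPKM in 3 or more of the 12 libraries and were tested. Of these, 280 passed through the wounding libraries alone (fewer than 3 of the other 9 reached 1 FPKM), 118 of them called negative for the difference, and 222 through the Glu libraries alone, 31 of them called positive. Such genes entered because they are high in that group, so their number in a list is given beside its count, and those counts are a description.

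As background, wounding and glutamate are both known to start calcium waves that travel from leaf to leaf through glutamate receptor-like (GLR) channels, and calcium reaching the distal leaf is linked to the synthesis of jasmonate (JA), the wound hormone. JA-Ile, its active form, is sensed by COI1 together with JAZ proteins, whose destruction frees MYC transcription factors; the JAZ genes and the enzymes of JA synthesis and breakdown are themselves MYC targets. The salicylic acid pathway, with EDS1 and PAD4 at its start, is best known from defense against biotrophic pathogens.

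Depth is unknown, because the deposited FPKM values carry no read counts; they summed to between 548167 and 580837 per library. Wounding mock replicate 1 stood apart, with 18664 genes above 0 where the other 11 libraries had 21090 to 21700, and with a correlation of 0.976 to 0.977 with its replicates where every other pair reached 0.992 or more. The leaf mesophyll markers summed to between 20950 and 28960 FPKM in every library. Of the 4 root markers, IRT1, COBL9 and PHT1;9 stayed under 0.1 FPKM everywhere, while PYK10 was at 25.4 to 61.2 FPKM. The flower and seed markers summed to at most 1.13 FPKM. Epidermis markers summed to 121 to 159 FPKM after Glu against 77.5 to 84.0 in mock. They summed to 59.2 to 66.3 after wounding against 74.4 to 105 in wounding mock, and 2 of the 3 were called for the difference. The members did not move together. CER6 was at 79.8 to 131.5 FPKM after Glu against 45.2 to 49.4 in mock, and at 44.2 to 49.6 after wounding against 41.9 to 54.1. ATML1 was at 26.1 to 26.4 after Glu against 22.7 to 25.6, and at 11.8 to 13.2 after wounding against 24 to 30.1. PDF1 varied from 1.64 to 15.2 after Glu and was at 2.90 to 3.46 after wounding against 6.80 to 21.2. The part of these markers in the results below was not tested. The guard cell markers summed higher in both treated groups, at 43.1 to 46.2 FPKM after Glu and 36.8 to 38.0 after wounding. In the untreated libraries they summed to 27.8 to 32.7, and no guard cell marker was called. In leaf samples, fewer cells of a type and less RNA per cell cannot be told apart.

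The difference was called for 1272 genes, 7.31% of those tested, 730 of them negative (4.19%) and 542 positive (3.11%). Wounding itself was called for 1396 genes (8.02%), 915 of them higher (5.26%) and 481 lower (2.76%), and Glu for 196 (1.13%), 189 higher (1.09%) and 7 lower (0.0402%). A count of the Glu libraries directly against wounding gave 1158 genes (6.65%), 539 higher after Glu (3.1%) and 619 lower (3.56%). Across all genes the 2 effects had a Pearson r of 0.35, which describes 17403 genes in 12 libraries and carries no test. Without wounding mock replicate 1 the difference was called for 1375 genes, 661 positive and 714 negative.

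**Figure D1:**
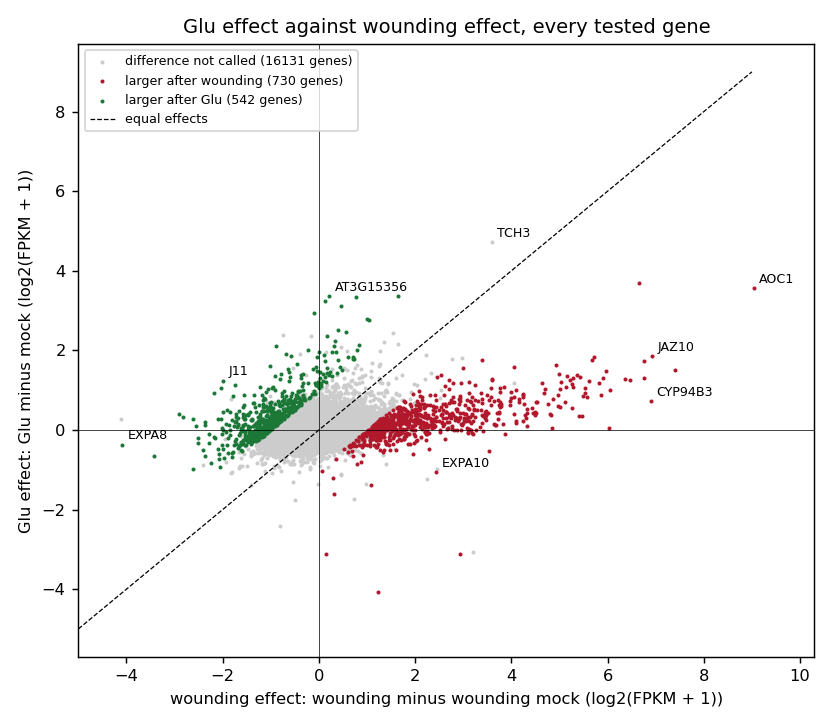
Effect of wounding (x axis) and of Glu (y axis) on every tested gene of leaf 6, both on log2(FPKM + 1), from 3 libraries per group, with the dashed line where both effects are equal. The 730 red genes (larger after wounding) spread along the x axis, with a median Glu effect of 0.19, and the 542 green genes (larger after Glu) lie above the line.

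Of the 730 genes with a negative difference, 640 were called higher after wounding alone, and 44 were called higher in both, with a median effect of 5.02 after wounding and 1.27 after Glu. A Glu effect that was not called is not an absent one, since 490 of the 640 had a Glu effect above 0, and in 78 of them its adjusted p was under 0.05 while the fold fell short. Of the 542 positive genes, 294 were called lower after wounding alone, 72 were called higher after Glu alone, and 168 were called in neither arm but for the difference. Of the 189 genes called higher after Glu, 80 had a positive and 44 a negative difference, and for 65 it was not called. A gene whose difference was not called was not shown to respond equally.

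The jasmonate pathway held many of the largest differences. Of 52 tested genes in the 5 jasmonate lists, 43 were called with a negative difference, against 4.19% of all genes, and 9 of the 43 were tested through the wounding libraries alone. AOC1 (AT3G25760), an allene oxide cyclase that forms the JA ring skeleton, stood at 947, 882 and 879 FPKM after wounding and at 0, 1.21 and 1.29 in the wounding mock. In the Glu group it stood at 58.9, 41.4 and 81.3 FPKM, against 3.54, 4.56 and 4.03 in mock. No groups overlap, and the wounding libraries are the highest; the Glu effect was 3.56 and the wounding effect 9.04, a difference of -5.48 ± 0.41 (SE, adjusted p = 1.8e-06). Mock was called above wounding mock for AOC1, by 1.55, and its direct value was -3.93. AOC1, AOC2 and AOC3 are near-identical copies, and how reads were split between them is not known. JAR1 (AT2G46370), which couples JA to isoleucine, was at 254, 240.1 and 237 FPKM after wounding and 33.8, 32.4 and 38.0 after Glu, close to 33.8, 35.5 and 32.2 in mock. Its Glu effect was 0.04 and its difference -2.74 ± 0.16 (adjusted p = 2e-07). Of the 13 biosynthesis genes, 12 were called negative, LOX6 being the other (-0.68). In this list LOX3, LOX4, AOC1, AOC3 and OPR3 were also called higher after Glu.

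Genes that break JA down had the most negative median of the 26 lists. All 9 tested members of the catabolism list were called negative (all genes 4.19%), with a median of -4.64 (Glu 0.92, wounding 5.83, all genes 0.08). Of the 9, CYP94B3, JOX3, JOX4 and ST2A were tested through the wounding libraries alone, and 5 were called with a filter of 1 FPKM in 6 or more libraries and 3 over genes above 0 in all 12. CYP94B3 (AT3G48520), which hydroxylates JA-Ile, was listed at 0 in all 6 untreated libraries. After wounding it stood at 131, 110.2 and 116 FPKM, and after Glu at 0.559, 0.579 and 0.824, the direct value being -6.18. CYP94B1 (AT5G63450), of the same family, read 121, 102 and 104 FPKM after wounding and 1.44, 1.36 and 1.81 after Glu, with no untreated library above 0.0244. JOX4 (AT2G38240), a jasmonate oxidase, was at 68.4, 65.5 and 65.9 after wounding and 0.192, 0.206 and 0 after Glu, and at 0.0633 to 0.128 in mock, so its Glu and mock libraries overlapped. IAR3 (AT1G51760), an amidohydrolase, did respond to Glu, with 27.5, 28.1 and 25.4 FPKM against 10.2, 10.14 and 9.96 in mock, but with 289, 301 and 306 after wounding its difference was -4.10 ± 0.14 (adjusted p = 3.9e-09).

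Among the JAZ repressors, 9 of 11 tested were called negative (all genes 4.19%), with a median of -3.92. Of these, JAZ7 and JAZ13 were tested through the wounding libraries alone. JAZ10 (AT5G13220) was at 4.27, 5.14 and 4.88 FPKM after Glu and 198, 186 and 179 after wounding; untreated libraries were between 0.108 and 1.36. Its Glu effect of 1.86 was called as well, as were those of JAZ2, JAZ5, JAZ6, JAZ7 and JAZ9. JAZ9 (AT1G70700) was higher before treatment in mock (54.2, 48.5 and 44.7 FPKM) than in wounding mock (5.13, 12.4 and 11.8), and reached 121, 117 and 125 after Glu and 861, 817 and 816 after wounding. JAZ12 had a difference of -0.97, just short of the threshold, and JAZ11 of 0.58. The perception and bHLH list, by contrast, had 3 of 9 called negative (all genes 4.19%): MYC2 (AT1G32640), JAM1 (AT2G46510) and NINJA (AT4G28910), at -3.92, -1.43 and -1.204. The master regulator MYC2 was uneven, at 3.99, 0 and 0.666 FPKM in mock and 3.41, 3.09 and 0 after Glu, with 18.15, 24.97 and 20.9 after wounding, and it overlaps another annotated gene; its adjusted p of 0.0065 no longer met the threshold with a pseudocount of 0.1. COI1 was at 9.16 to 11.3 FPKM in mock and 7.97 to 8.69 after wounding, with a difference of 0.45.

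**Figure D2:**
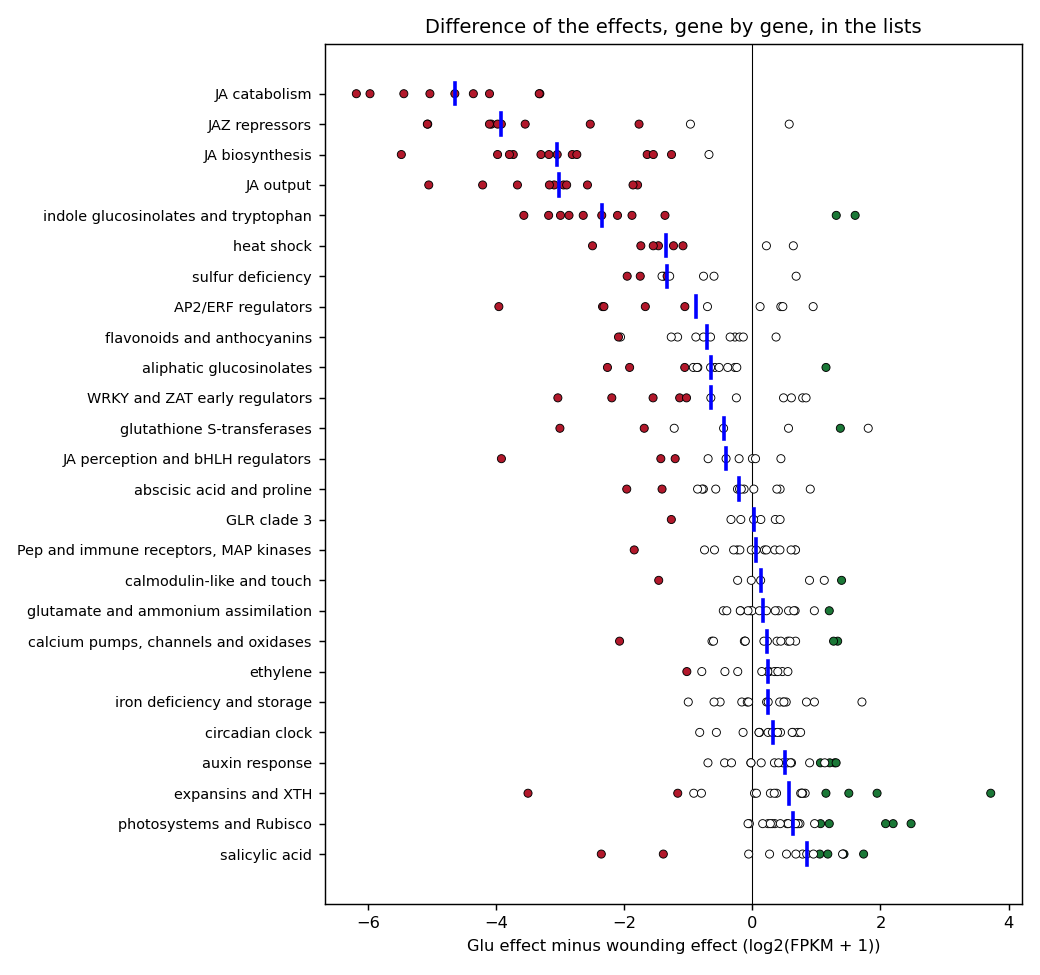
Difference of the Glu and wounding effects on log2(FPKM + 1) (x axis) for each tested gene of the 26 gene lists (rows); filled points were called (red larger after wounding, green larger after Glu), open points were not, and the blue bar is the list's median. In the JA biosynthesis, catabolism and output lists every tested gene lies left of 0, down to -6.18, while the salicylic acid and photosystem lists have medians of 0.85 and 0.64.

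The outputs of JA showed where the choice of control matters. All 10 tested were called negative in the difference (all genes 4.19%), BSMT1, THI2.1 and TPS04 having been tested through the wounding libraries alone. Over genes above 0 in all 12 libraries, 4 were called. In the direct comparison VSP1 and VSP2, vegetative storage proteins, were higher after Glu. VSP1 (AT5G24780) was at 1988, 1907 and 1255 FPKM in mock and 1852, 1772 and 1985 after Glu, its Glu effect being 0.15. In the wounding arm it went from 105, 49.6 and 39.5 FPKM to 908, 811 and 823. The difference was -3.67 ± 0.40 (adjusted p = 4.7e-05) and the direct value 1.14 (adjusted p = 0.0099), with mock above wounding mock by 4.81 on the log2 scale (adjusted p = 3.1e-06). VSP2 (AT5G24770) gave -1.79 and 1.26 in the same way, with a mock shift of 3.05. The VSP genes are similar in sequence, and reads could have been shared. LOX2 (AT3G45140) and JAL23 (AT2G39330), another pair of JA-responsive genes, had mock shifts (mock minus wounding mock) of 1.86 and 2.98 and direct values of -0.95 and -0.18, neither called, beside differences of -2.81 and -3.17. Other outputs kept their direction in both comparisons. The terpene synthase TPS04 (AT1G61120) was listed at 0 in all untreated libraries and was at 0.368, 0.193 and 0.267 FPKM after Glu and 39.9, 42.5 and 41.2 after wounding, a direct value of -5.05.

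Mock libraries differed from wounding mock in 79 genes (0.454%), 72 of them higher in mock (0.414%) and 7 lower (0.0402%). Of those 72, 64 were called negative for the difference, and 16 were members of the jasmonate lists. Since mock enters the difference with one sign and wounding mock with the other, a higher mock makes the difference more negative. Of the 730 negative genes, 666 had no called mock shift, and 560 were called lower after Glu than after wounding in the direct comparison as well. A shift that was not called is not an absent one. The median mock shift was 0.28 in the negative genes, -0.18 in the positive and 0.03 over all. Medians of the JAZ, biosynthesis, catabolism and output lists were -3.92, -3.045, -4.64 and -3.02 for the difference. Their direct medians were -2.62, -2.10, -3.42 and -1.59. The perception list had -0.41 and -0.47. Only VSP1 and VSP2 were called with opposite signs. Of the 542 positive genes, 349 were called positive in the direct comparison and none negative.

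**Figure D3:**
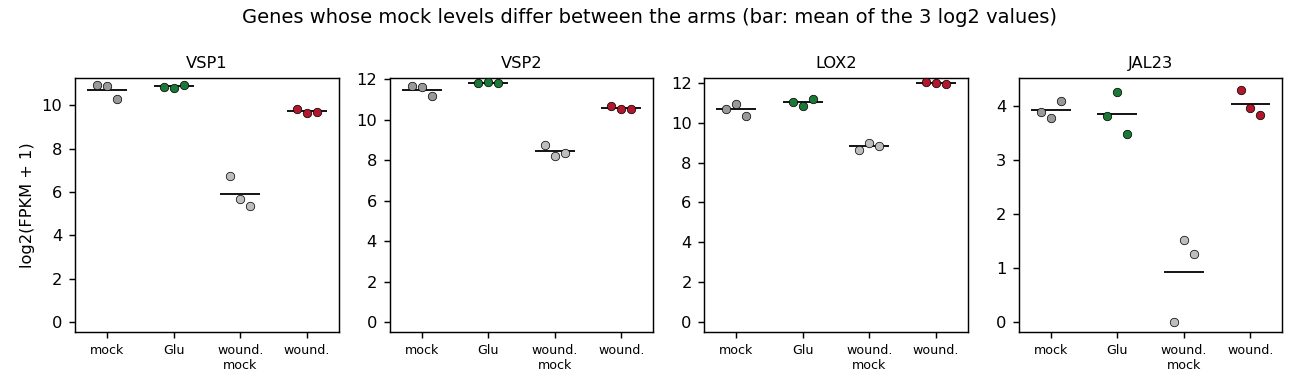
log2(FPKM + 1) of 4 jasmonate-responsive genes (y axis) in the 3 libraries of each group (x axis, points), with bars at the mean of the 3 log2 values. In every panel the mock libraries lie above the wounding mock libraries; VSP1 differs by 4.81 and VSP2 by 3.05.

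Indole glucosinolates, sulfur-rich defense compounds made from tryptophan, split within the list. Of 11 tested genes, 9 were called negative (all genes 4.19%), and MYB51 and IGMT1 positive (all genes 3.11%). CYP79B3 (AT2G22330), which commits tryptophan to the pathway, was at 30.4, 27.5 and 33.1 FPKM after Glu, 9.32 to 12.1 in mock and 312 to 338 after wounding. Its effects were 1.42 after Glu and 4.99 after wounding, both called, and its difference -3.57 ± 0.16 (adjusted p = 2.5e-08). MYB34 (AT5G60890), a regulator of the pathway, reached 132, 134 and 127 FPKM after wounding and 14.8, 14.5 and 14.2 after Glu, for a difference of -2.99, whereas the related regulator MYB51 had an effect of 0.84 after Glu and -0.76 after wounding, a difference of 1.61. IGMT1, an indole glucosinolate methyltransferase, was called higher after Glu (1.40) and not after wounding (0.09). Tryptophan synthesis genes ASA1, TSA1 and TSB1 had wounding effects of 3.37, 2.66 and 1.54 and Glu effects of 0.51, 0.02 and 0.17. The aliphatic branch had 3 called negative of 13 (SOT17, SUR1 and BCAT4) and 1 positive, its regulator MYB28. BCAT4 was lost on leaving out mock replicate 1 (-0.98), Glu replicate 3 (-0.89) or wounding mock replicate 2 (-0.99), and MYB28 on leaving out wounding mock replicate 3 (0.98).

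Several regulators known from fast stress responses were called with negative differences. ZAT10 (AT1G27730), a zinc finger repressor, was at 9.36, 7.39 and 7.13 FPKM after wounding and 0.503, 0.105 and 0.419 after Glu. The Glu values overlapped its mock values of 0.211 to 0.388, and its difference was -3.04. RAP2.6 (AT1G43160), an AP2/ERF factor listed at 0 in all untreated libraries, was at 1.51, 2.99 and 0.373 after Glu and 40.1, 30.3 and 38.9 after wounding. In the WRKY and ZAT list 5 of 11 were called and in the AP2/ERF list 5 of 10, all negative (all genes 4.19%). The WRKY and ZAT median of -0.65 turned to 0.49 with no filter on low values and turned positive under 2 other filters. Tested through wounding libraries alone were 2 of those 5 WRKY and ZAT calls, ZAT10 among them. The same holds for 3 of the AP2/ERF calls, RAP2.6 among them. Heat shock genes gave 6 of 8 called negative (all genes 4.19%). They were led by HSP70-4 (AT3G12580) with 84.4, 79.0 and 93.7 FPKM after wounding and 14.4 to 18.1 after Glu, at -2.49 ± 0.28. When the 3 GSH libraries joined the fit, 2 of the heat shock genes were called, with HSP70-4, HSFA2 and HSP90.1 among those lost at the same differences (-2.49, -1.74 and -1.55). Sulfur deficiency genes were called negative in 4 of 9 (all genes 4.19%), namely SDI1, SDI2, APR1 and APR3. RBOHD (AT5G47910), the oxidase that makes apoplastic reactive oxygen, was at 41.1, 44.6 and 39.9 FPKM after wounding. After Glu it was at 11.4, 7.71 and 15.2 (-2.07 ± 0.27).

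Some photosystem and cell wall genes had positive differences, with falls after wounding. In the photosystem and Rubisco list 5 of 21 were called, all positive (all genes 3.11%), all light-harvesting proteins of photosystem II. LHCB1.1 was at 231 to 234 FPKM after wounding and 1000 to 1286 in wounding mock. Its relative LHCB1.3 was at 6777 to 7195 and 8339 to 11170 FPKM. How reads were split between such related genes is not known. LHCB2.1 (AT2G05100) was at 123, 120.3 and 129 FPKM after wounding and 573, 716 and 642 in wounding mock, while Glu (500.3, 472 and 531) overlapped mock (402, 507 and 480.1). Its difference was 2.48 ± 0.15 (adjusted p = 2.9e-07). EXPA8 (AT2G40610), an expansin that loosens the cell wall, had the largest positive difference among genes that were called, 3.72 ± 0.46 (adjusted p = 0.00013), with 69.5, 67.4 and 29.3 FPKM in wounding mock and 1.62, 2.19 and 2.52 after wounding, and a Glu effect of -0.37. Among 18 expansins and XTH genes, 4 were called positive (all genes 3.11%) and 2 negative (all genes 4.19%). The auxin list had 4 of 18 called positive (IAA1, IAA14, SAUR20 and SAUR21), 2 of 18 under median-ratio scaling, and SAUR19 to SAUR24 are near-identical copies. Without mock replicate 2, 2 of the list were called. IAA1 was lost on leaving out mock replicate 1 or 2, any Glu replicate, or wounding replicate 1, with differences of 0.93 to 1.31.

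EXPA10 (AT1G26770) was the 1 negative gene called in opposite directions in the arms: 45.3, 44.0 and 51.2 FPKM after Glu against 113, 110.1 and 77.0 in mock, and 307, 302 and 296 after wounding against 44.0 to 70.4. Its difference was -3.50 ± 0.24 (adjusted p = 7.8e-07). Mock was above wounding mock by 0.84 (adjusted p = 0.035 by limma), short of the fold threshold, and the Glu libraries overlapped wounding mock. The direct value was -2.665. J11 (AT4G36040), a DnaJ chaperone, was the clearest of the 6 genes that rose after Glu and fell after wounding. It stood at 40.8, 43.6 and 37.4 FPKM after Glu, 15.6, 16.3 and 17.9 in mock, 19.3, 20.8 and 18.99 in wounding mock and 4.46, 4.16 and 4.01 after wounding. No library of one treatment reached the other, and the difference was 3.23 ± 0.13 (adjusted p = 1e-08), its direct value being 3.00. The others were LHB1B1 (3.08), a light-harvesting gene, ATCTH (2.87), a zinc finger gene, AT1G35710 (2.63), AT3G15450 (2.31) and RLP37 (2.101), a receptor-like protein. Some arm effects only just passed the fold threshold. The Glu effect was -1.064 for EXPA10, 1.051 for LHB1B1 and 1.039 for RLP37. The wounding effect was -1.027 for AT1G35710 and -1.062 for RLP37. All of these genes stayed called for the difference without each library, but the arm calls were not tested in that way.

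Salicylic acid genes had more positive than negative calls, with a median of 0.85. Of 15 tested, 5 were called positive (all genes 3.11%), namely PAD4, EDS1, SARD1, NPR4 and SAG101. The 2 called negative (all genes 4.19%) were EDS5, which exports salicylic acid precursor, and GRX480, a glutaredoxin. PAD4 (AT3G52430) was at 6.12, 5.12 and 7.43 FPKM after Glu against 3.41, 4.48 and 3.47 in mock, and 0.732, 1.48 and 0.967 after wounding against 2.94, 3.94 and 3.72; the Glu effect of 0.59 was not called and the wounding effect of -1.15 was. Its difference was 1.74 ± 0.24 (adjusted p = 0.00036). SARD1 (AT1G73805), a transcription factor of the salicylic acid pathway, was at 2.66, 2.43 and 2.25 FPKM after Glu and 0.474 to 0.604 in mock, an effect of 1.18 that was called, with a wounding effect of -0.23. EDS5 (AT4G39030) was at 14.5, 14.9 and 16.1 FPKM after wounding and 1.83, 2.11 and 1.93 after Glu. SARD1, tested through its Glu libraries alone, no longer met the threshold with a pseudocount of 0.1.

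The 72 genes called higher after Glu alone with a positive difference had a median effect of 1.45 after Glu and 0.03 after wounding, and 26 of them, AT3G15356, AT2G24600 and AT3G16530 included, were tested through the Glu libraries alone. AT3G15356 stood at 13.6, 7.83 and 16.8 FPKM after Glu and at 0.235 to 0.327 in mock. After wounding it was at 0.344 to 0.586, and the difference was 3.155. AT2G24600 read 11.2, 8.24 and 17.1 FPKM after Glu, AT3G16530 9.18, 8.92 and 9.90, and the starch-linked QQS (AT3G30720) 40.6, 31.7 and 48.0. Untreated QQS libraries varied from 0.221 to 7.49 FPKM, and its difference of 3.11 was lost with a pseudocount of 0.1 and with no filter on low values. For AT1G10150 the positive difference of 3.04 came with a mock shift of -2.35 (adjusted p = 0.014) and a direct value of 0.69 that was not called. It overlaps PP2-A10 (AT1G10155), which was called lower after Glu (-2.42). TCH3 (AT2G41100), a calmodulin-like touch gene, had the largest Glu effect of the named genes, 4.72, from 1.08, 3.83 and 0.882 to 72.7, 39.2 and 116 FPKM. It rose after wounding too, to 17.0, 13.6 and 16.8 from 0 to 0.982 FPKM. Its difference of 1.12 ± 0.57 was not called (adjusted p = 0.24). The direct value of 2.07, higher after Glu, was called (adjusted p = 0.0024 by limma), beside a mock shift of 0.95 that was not called. CML39 and CML9, of the same list, were called in opposite directions, at -1.46 and 1.39. Glutamine synthetase GLN1;1 (AT5G37600) had a difference of 1.201, called, but not without wounding mock replicate 1 (0.99).

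The glutamate receptor-like genes GLR3.3 and GLR3.6 are channels known to be needed for the leaf-to-leaf calcium wave, and of the pair GLR3.3 was called for the difference. GLR3.3 (AT1G42540) was at 9.43, 9.44 and 8.51 FPKM after Glu, 9.17 to 9.86 in mock and 20.9, 20.2 and 20.9 after wounding, which is above its wounding mock of 6.98 to 9.74. The difference was -1.26 ± 0.15 (adjusted p = 0.00012). GLR3.6 (AT3G51480) was at 2.82, 2.71 and 3.66 after Glu and 1.43, 2.53 and 2.2 after wounding, with a difference of 0.43 ± 0.27 (adjusted p = 0.36). No other member of the 7 in clade 3 was called, where 7.31% of all genes were. Calcium pumps gave ACA1 and ACA4 positive at 1.33 and 1.27, ACA1 from a called Glu effect of 1.01 and ACA4 from a wounding effect of -1.48.

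**Figure D4:**
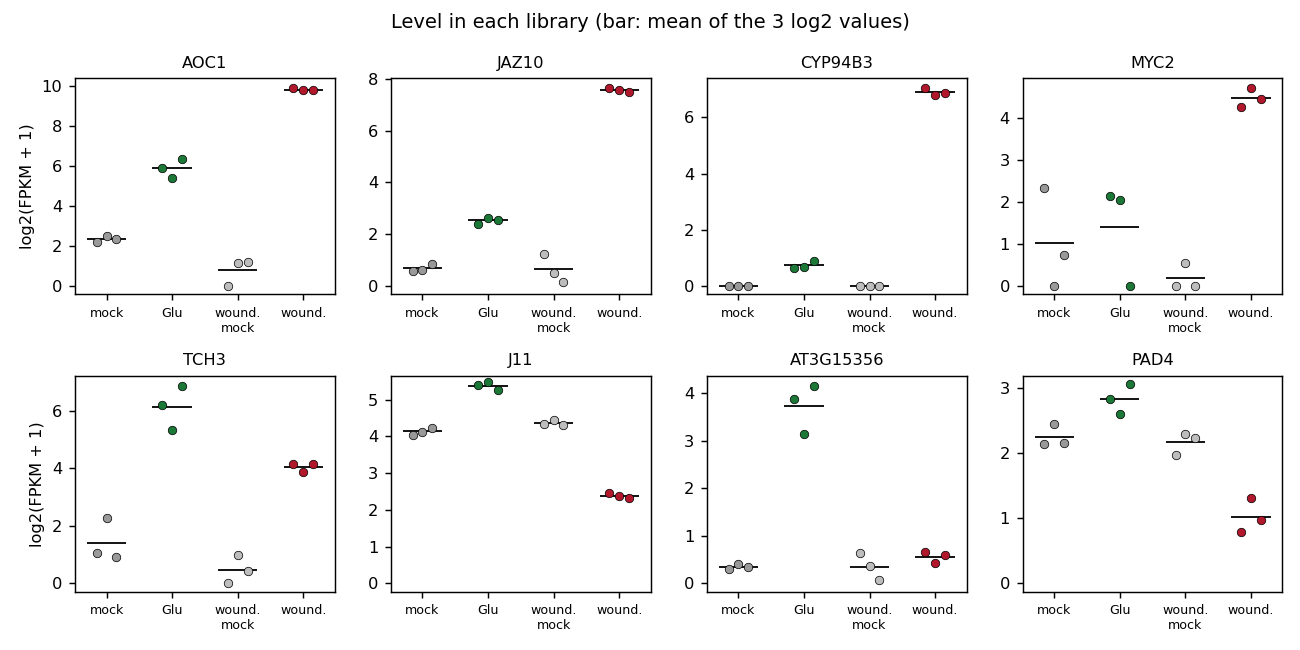
log2(FPKM + 1) (y axis) of 8 named genes in the 3 libraries of each group (x axis, points), with bars at the mean of the 3 log2 values. AOC1, JAZ10 and CYP94B3 are highest after wounding, J11, AT3G15356 and PAD4 are highest after Glu, and TCH3 is high after both.

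The remaining largest differences were of varied genes. FLR1 (AT3G12145), a leucine-rich repeat gene, was at 357, 309 and 305 FPKM after wounding and 23.3, 23.4 and 26.4 after Glu. Its difference was -5.10 ± 0.16 (adjusted p = 1.3e-09), with a called mock shift of 1.42 and a direct value of -3.68. The mannan synthase genes CSLA01 (AT4G16590) and ATCSLA15 (AT4G13410) had differences of -5.87 and -5.20, from wounding effects of 7.39 and 6.46 and called Glu effects of 1.52 and 1.26. Their mock libraries were called higher than wounding mock by 2.63 and 1.89, and their direct values were -3.25 and -3.31. AT1G66820 had a fitted difference of -6.04 but varied from 10.2 to 0 to 38.4 FPKM between the wounding libraries. Each library of Glu and of wounding mock was listed at 0, while mock was at 7.02, 9.51 and 6.75 FPKM. Its Glu effect of -3.12 and mock shift of 3.12 were not called, and its direct value was -2.93. The gene overlaps another. On the positive side, CIPK20 (AT5G45820), a kinase of the calcium-sensing CBL network, was at 0.925, 0.720 and 0.716 FPKM after wounding and 7.99 to 15.99 in wounding mock, with a difference of 3.14 ± 0.31, a called mock shift of -1.11 and a direct value of 2.04. AT1G23390, AT5G16030 and AT5G02515 had differences of 3.095, 3.296 and 2.88, and the last pair overlap each other in the annotation. In all 3 the wounding libraries were the lowest group.

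The remaining lists held from 0 to 3 calls each for the difference, where 7.31% of all genes were called. By limma, 0 of 16 circadian clock genes and 0 of 15 iron genes were called. At an unadjusted p under 0.05 alone, with no minimum fold, 10 clock genes passed, 8 of them positive, and 2 iron genes, both positive, against 26.6% of all genes. In the iron list 4 genes were called without wounding mock replicate 1 and 1 without wounding mock replicate 3. Ethylene had 1 of 13, ETR2, a receptor, which was lost on leaving out mock replicate 3, Glu replicate 1, wounding mock replicate 1 or wounding replicate 3 (-0.87 to -0.99). The abscisic acid and proline list had 2 of 15, PRODH1 and PRODH2, which break proline down, at -1.96 and -1.41. P5CS1, which makes proline, was called lower in both arms, with a difference of 0.02. The Pep and immune receptor list had 1 of 15, PEPR2, at -1.84. Flavonoids had 1 of 12, the regulator PAP1 at -2.09, where mock exceeded wounding mock by 1.71 and the direct value was -0.38. Without mock replicate 3, 4 flavonoid genes were called. Glutathione S-transferases had GSTU5 and GSTU4 negative, at -3.003 and -1.69, and GSTF7 positive at 1.37. Among calls of the smaller lists, GSTU4, ETR2, CML39 and HSFA2 were tested through their wounding libraries alone, and GSTF7 and IGMT1 through their Glu libraries alone.

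Promoters were searched for short motifs, as a description of these windows. The 300 bases before the annotated gene start were read from RefSeq TAIR10.1 for 17302 of the 17403 tested genes, on both strands. The G-box, CACGTG, which MYC factors are known to bind, was in 17.1% of the promoters of the genes called negative, 5.54% of the positive ones and 8.03% of all tested. The I-box, GATAAG, known from light-regulated genes, was in 14.9%, 22.9% and 14.8%, and the W-box, TTGACC or TTGACT, known from WRKY binding, in 30.1%, 38.9% and 30.7%. The GCC-box, GCCGCC, was in 2.47%, 0.923% and 2.5%, and the rapid wound response element, CGCGTT, in 3.56%, 2.58% and 3.13%. In the 43 jasmonate list genes called negative, the G-box share was 16.3%, the I-box 20.9%, the W-box 23.3%, the GCC-box 0% and the rapid wound response element 4.65%. The sets include the 118 negative and 31 positive genes tested through 1 treated group alone. A set of 4 promoters is shown to let the letters be seen, chosen from the larger differences among named genes whose window holds the motif and overlaps no other annotated gene; the capitals mark every match of the 5 motifs, none of which overlaps another here. JAZ13 (chr3:7879811-7880110, minus strand) and RAP2.6 (chr1:16263505-16263804, plus strand) have a G-box and were called negative, at -4.10 and -3.96. AT3G15356 (chr3:5175524-5175823, minus strand) and AT1G65490 (chr1:24354346-24354645, plus strand) have an I-box and were called positive, at 3.155 and 2.601. JAZ13 and RAP2.6 were tested through the wounding libraries alone, and AT3G15356 through the Glu libraries alone.
JAZ13: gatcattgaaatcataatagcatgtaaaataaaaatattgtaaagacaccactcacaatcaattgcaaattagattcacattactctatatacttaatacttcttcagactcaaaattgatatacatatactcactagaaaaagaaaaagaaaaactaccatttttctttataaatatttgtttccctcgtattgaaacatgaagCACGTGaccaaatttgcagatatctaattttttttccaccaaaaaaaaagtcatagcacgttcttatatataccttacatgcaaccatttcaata
RAP2.6: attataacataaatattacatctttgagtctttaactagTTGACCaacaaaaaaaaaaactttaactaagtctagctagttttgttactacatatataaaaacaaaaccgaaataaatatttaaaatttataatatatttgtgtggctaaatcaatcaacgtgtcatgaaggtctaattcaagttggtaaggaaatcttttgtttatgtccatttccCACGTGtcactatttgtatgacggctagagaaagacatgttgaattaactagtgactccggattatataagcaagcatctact
AT3G15356: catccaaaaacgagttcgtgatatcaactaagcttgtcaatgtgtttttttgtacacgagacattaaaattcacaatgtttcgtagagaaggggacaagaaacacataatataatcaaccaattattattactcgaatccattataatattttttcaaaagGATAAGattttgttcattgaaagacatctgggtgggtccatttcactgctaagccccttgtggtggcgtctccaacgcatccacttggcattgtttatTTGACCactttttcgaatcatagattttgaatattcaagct
AT1G65490: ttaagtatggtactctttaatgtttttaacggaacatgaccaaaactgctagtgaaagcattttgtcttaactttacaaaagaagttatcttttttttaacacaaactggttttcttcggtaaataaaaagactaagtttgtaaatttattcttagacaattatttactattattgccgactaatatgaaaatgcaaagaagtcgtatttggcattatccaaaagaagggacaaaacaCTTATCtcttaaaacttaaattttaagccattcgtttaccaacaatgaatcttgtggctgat
The G-box starts 95 and 83 bases before the gene start in JAZ13 and RAP2.6, and the I-box 139 and 62 bases before it in AT3G15356 and AT1G65490. In this window, 7 of the 43 jasmonate list genes called negative have CACGTG.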

How the data were processed

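RNA was sequenced from leaf 6 by the authors, and per the labels their processing named cutadapt, Trimmomatic, HISAT2, StringTie and DESeq2 1.16.1 with the TAIR10 build. The deposited values are FPKM in a table named for raw counts. They are not whole numbers, so no count test was run, and depth is unknown. Of the gene IDs, 99.1% were found in TAIR10.1, which gave names, overlaps and promoters. Columns were mapped to groups by their labels.

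The 4 group means were fitted to log2(FPKM + 1) of 12 libraries with limma 3.58.1 in R 4.3.3, with a variance trend. P-values were adjusted by the Benjamini-Hochberg method over 17403 genes and are from limma's moderated test. Calls needed an absolute log2 value above 1 together with an adjusted p under 0.05. The script was tested on simulated data.

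The members of the comparison, the 26 gene lists and the tests were chosen with earlier results of these data known. Named genes were the 10 largest differences in each direction that stayed called without each library, genes called in opposite directions in the arms, the 10 Glu-called genes with the largest positive differences, up to 4 genes per list and all jasmonate genes, GLR3.3 and GLR3.6. The text gives a selection of these 156 genes, and 1 promoter chosen for printing is not reported here. Alternatives changed the pseudocount, filter, scaling, threshold, libraries, weights and replicate numbers.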

Additional observations from a re-analysis of the deposited data

Results flagged for a closer look

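The difference between the Glu effect and the wounding effect was called for 1272 genes by limma's test of that difference (adjusted p under 0.05, absolute log2 above 1). Genes called in opposite directions in the arms are among them, some with an arm effect only just past the fold threshold. EXPA10 had a difference of -3.50, lower after Glu and higher after wounding, each against its own untreated group. Its mock was above its wounding mock by 0.84, which was not called. J11 (3.23), LHB1B1 (3.08), ATCTH (2.87), AT1G35710 (2.63), AT3G15450 (2.31) and RLP37 (2.101) were higher after Glu and lower after wounding.

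The GSH libraries entered only the alternative fit of all 15 libraries. In the GSH libraries, 5 of the genes named for their Glu effect were higher than in every untreated library. The lowest GSH library was at 14.3 FPKM for AT3G15356, 7.08 for AT3G16530, 14.0 for AT1G35710, 7.11 for AT1G65490 and 3.14 for AT2G24600.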

How the results depend on the processing

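Every comparison kept its count within 1.5 times under each alternative but 1. With an adjusted p under 0.05 alone, the calls were 2651 for the difference (59.2% positive against 42.6%), 5029 for the direct comparison (65.9% against 46.5%), 878 for Glu (81.7% against 96.4%), 4962 for wounding (38.2% against 65.5%) and 184 for the mocks (83.2% against 91.1%). Positive calls in the direct comparison were 56.5% with a pseudocount of 0.1 and 35.5% with median-ratio scaling, which moved the median of all genes by -0.12. The array weights gave 79.8% positive mock calls. Leaving out each library gave 1172 to 1384 calls for the difference, 1076 to 1269 direct, 163 to 210 for Glu, 1340 to 1521 for wounding and 68 to 101 for the mocks.

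The median of the WRKY and ZAT list, -0.65, turned to 0.49 with no filter, 0.12 with 1 FPKM in 6 or more libraries, and 0.49 over genes above 0 in all 12 libraries, a filter chosen after seeing the data. That of the glutathione S-transferases, -0.45, turned to 0.058 under the last. These alternatives test other members of the lists. Of the values of named genes under the alternatives, 3145 kept their call, 39 lost it, 29 gained it and none reversed.

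Replicate numbers were not taken to pair the samples, since same-numbered deviations correlated at -0.01, -0.12 and -0.04 in the Glu arm and 0.18, 0.20 and -0.00058 in the wounding arm. With a replicate block the difference was called for 1267 genes. Depth is not known, so the precision of values under about 1 FPKM is not known either.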

Other observations

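Families outside the lists were grouped by symbol prefix, after their values had been seen, where 6 or more members were tested. Of 217 such families, 174 had 0 or 1 call, and the 6 below were picked for their calls, so the counts are a description. Over all genes 3.11% were called positive and 4.19% negative. Of 19 cysteine-rich receptor-like kinases (CRK, by the annotation's product names), 9 were called, each with a positive difference, with a median of 0.94; CRK5 and CRK41 among the 9 were tested through the Glu libraries alone. CRK14 (AT4G23220) was at 10.4, 11.6 and 10.99 FPKM after Glu, 0.823 to 1.42 in mock and 1.22 to 1.58 after wounding, a difference of 1.90. CRK10 (AT4G23180), by contrast, overlapped between Glu and mock and was at 5.92, 6.62 and 5.15 FPKM after wounding against 17.2 to 20.9 in wounding mock, a difference of 1.85.

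The ketoacyl-CoA synthases (KCS), which elongate fatty acids for wax and cutin layers, had 5 of 14 called positive (all genes 3.11%), 3 with median-ratio scaling or without wounding mock replicate 1. KCS6, also called CER6 and one of the epidermis markers, was at 109, 132 and 79.8 FPKM after Glu and 45.2 to 49.4 in mock. KCS8 was at 2.68, 2.83 and 3.28 FPKM after wounding and 35.5 to 55.1 in wounding mock. The B-box factors (BBX) had 4 of 11 called positive, each with a wounding effect called lower, and 1 negative, BBX13, which was at 95.7, 91.0 and 89.1 FPKM after wounding and 23.5 to 29.7 after Glu.

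Sugar transporters of the SWEET family went both ways. SWEET12 was at 157, 147 and 146 FPKM after wounding and 30.9 to 48.6 in wounding mock, while SWEET13 was at 1.44, 1.68 and 1.45 against 7.83 or more; the differences were -1.86 and 1.87. In all, 4 of 8 SWEET genes were called negative (all genes 4.19%) and 1 positive (3.11%). Methionine sulfoxide reductases B (MSRB) had 4 of 8 called negative (all genes 4.19%), of which MSRB7 and MSRB9 were tested through the wounding libraries alone, with MSRB6 reaching 519, 554 and 544 FPKM after wounding from 34.4 to 41.5. Of 9 CSLA genes, 4 were called negative (all genes 4.19%), 3 of which had a called mock shift of 1.89 to 2.63 that makes the difference more negative.

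The gene AT1G10155 (PP2-A10) and 6 others were called lower after Glu, the fewest of any direction in the treatment arms; the 1 gene called lower in both arms was P5CS1 (AT2G39800), at -1.39 and -1.41.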
